A study of Mus musculus with 12 samples.

Results

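CREB, the cAMP response element binding protein, was mapped by chromatin immunoprecipitation and sequencing (ChIP-seq) in whole liver of mice, and the sites described here are those at genes whose mRNA was lower in the fasted than in the re-fed state. A site was included when its interval contained a CREB peak centre that the study lists for a gene on its sheet of fasting-repressed genes, and sites also listed for a fasting-induced gene were left out. This gave 321 of the 7547 distinct CREB sites in the deposited peak lists. The study assigned a site to a gene when the peak centre fell within the gene or in the 10 kb before its start, and it called a gene repressed from microarrays with a minimal fold change of 1.5 at a false discovery rate of 10%, from 4 livers per group. Neither the fold changes nor the false discovery rates of single genes were used here.

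Livers came from male C57BL/6J mice (strain given as C57/Bl6 in the sample labels) aged 8 to 12 weeks, with 5 fasted and 5 re-fed livers. All 10 mice went without food for 24 h. The fasted livers were taken at that point, at ZT03 (zeitgeber time, hours after lights on), and the re-fed livers after a further 2 h with food, at ZT05, so feeding and time of day cannot be told apart. The antibody recognised CREB-1. Peaks were called on the reads of each group pooled, and the lists therefore hold no value of a single liver, no replicate error and no basis for a test between the groups. All values below are descriptions. Their 95% intervals reflect only the number of sites, genes or reads counted, and not differences between livers. The reads carried no molecular identifiers. Signal from whole liver does not separate the cell types of the organ, so a low peak in all cells and a high peak in a few cells cannot be told apart.

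CREB is a leucine zipper factor that binds the palindromic cAMP response element (CRE) or a CRE half-site. In the fasting liver, glucagon raises cAMP, protein kinase A phosphorylates CREB, and genes of gluconeogenesis are switched on. The genes described here were lower in the fasted state. Among them are genes for folding, glycosylating and moving proteins in the endoplasmic reticulum (ER), for lipid synthesis and for ribosome production. Many ER chaperone genes carry an ER stress response element (ERSE), which is read by ATF6 and XBP1, and heat shock genes carry a heat shock element (HSE), which is read by HSF1.

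The promoters of the repressed genes held these elements in different places, and the stretches below show both kinds. The sequences are from RefSeq (GRCm38.p6), 30 bases each, read 5′ to 3′ on the strand of the gene, and capitals mark the fixed letters of the element. The first set holds 6 of the 11 bound genes with a full CRE, each with the whole stretch before the start of the gene. Tra2a, Zfand2a, Mkks and Gtf2f1 have sites among the 10 highest, Tubb2a has the highest site of the cytoskeletal genes and Rcan1 has 1 site in the fasted list only (0.472 RPM) and 1 in the re-fed list only (0.449 RPM). Which of its sites is nearer to the CRE was not analysed here.
Tra2a: ggtccgcccctTGACGTCAggcgccgggga
Tubb2a: ctctgcccccaTGACGTCAgcgggactggg
Zfand2a: tgacatgtaagTGACGTCAtcacggcgccc
Mkks: tgttcgctctcTGACGTCActcggaccggc
Gtf2f1: tgcctgcgtcgTGACGTCAcgacgggcgtg
Rcan1: gactaaggtgtTGACGTCAcctctttccag
The second set holds ER genes with an ERSE, on either strand.
Hspa5: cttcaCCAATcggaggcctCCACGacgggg
Calr: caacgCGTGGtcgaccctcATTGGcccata
Creld2: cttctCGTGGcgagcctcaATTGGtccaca
Alg12: gtggaCCAATtgaggctcgCCACGagaagc

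The CRE was centred 23 bases before the start in Tra2a, an SR-like splicing regulator, and 55 bases before it in Tubb2a, a beta tubulin. It was centred 121 bases before the start in Zfand2a, an arsenite-inducible proteasome partner, 144 in Mkks, a chaperonin-like protein, 171 in Rcan1, a calcineurin inhibitor, and 176 in Gtf2f1, a subunit of the general factor TFIIF. The ERSE was centred 56 bases before the start of Hspa5, which encodes the ER chaperone BiP, and 153 bases before that of Calr, the lectin chaperone calreticulin. The Creld2 and Alg12 stretches are a single element between these divergent genes, read from opposite strands (chr15:88819515-88819544, plus strand, for Creld2). In GRCm38.p6 the CRE stretches lie on the minus strand, at chr6:49264061-49264090 for Tra2a, chr13:34078049-34078078 for Tubb2a, chr5:139484598-139484627 for Zfand2a, chr2:136891536-136891565 for Mkks, chr16:92400235-92400264 for Rcan1 and chr17:57011450-57011479 for Gtf2f1. The ERSE stretches lie at chr2:34772020-34772049 on the plus strand for Hspa5 and at chr8:84847069-84847098 on the minus strand for Calr. The peaks are in mm8 coordinates and the promoter sequences in GRCm38.p6, and no mm8 genome was used, so whether a peak covers these letters was not analysed here.

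The repressed sheet named 508 genes, and 259 of them (51.0%, Wilson interval 46.6% to 55.3%) had at least 1 of the 321 sites. The share over all genes of the array was not computed here. The study reports a smaller share over all array genes, and similar shares for induced and repressed genes. Another 246 had no listed site, and 3 had only a site that is also listed for an induced gene. Gene entries with a RefSeq transcript had a site in 257 of 435 cases (59.1%), whereas entries without one had a site in 2 of 73. The study used RefGene gene models to assign sites. A single site was listed for 202 genes, a pair for 50 genes and 3 sites for 7 genes. Almost all sites (319) belonged to 1 repressed gene. The site at chr15:88647189-88647388 was listed for both Alg12, a mannosyltransferase of N-glycan assembly, and Creld2, an ER stress inducible ER protein. It had a height of 0.661 RPM (28 reads) and was called in both lists. The site at chr4:47495380-47495490 was listed for Alg2, another mannosyltransferase, and Sec61b, a subunit of the ER translocon. Its height was 0.519 RPM (22 reads), and it was called in the fasted list only.

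Genes were sorted by hand into 16 functional lists with 232 members, and the share with a CREB site differed between the lists. A site was listed for 166 of these genes (71.6%), and for 92 of the 205 ungrouped genes with a RefSeq transcript (44.9%). ER entry and glycosylation and traffic between ER and Golgi were the lists of at least 10 genes in which each gene had a site, with 20 of 20 (Wilson interval 83.9% to 100%) and 10 of 10 (72.2% to 100%). Chemokine and immune genes lay at the other end, with 2 of 13 (15.4%, 4.33% to 42.2%). Their sites belonged to Cxcl1, a neutrophil chemokine, and Ticam1, an adaptor of Toll-like receptors, while Ccl2, Cxcl10, Csf1 and Isg15 were among the genes with no listed site. The 25 genes for transcription factors had a site in 14 cases (56.0%). The lists were drawn up by hand with results of these data known, so the counts describe the sheet and are no test of a function.

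**Figure D1:**
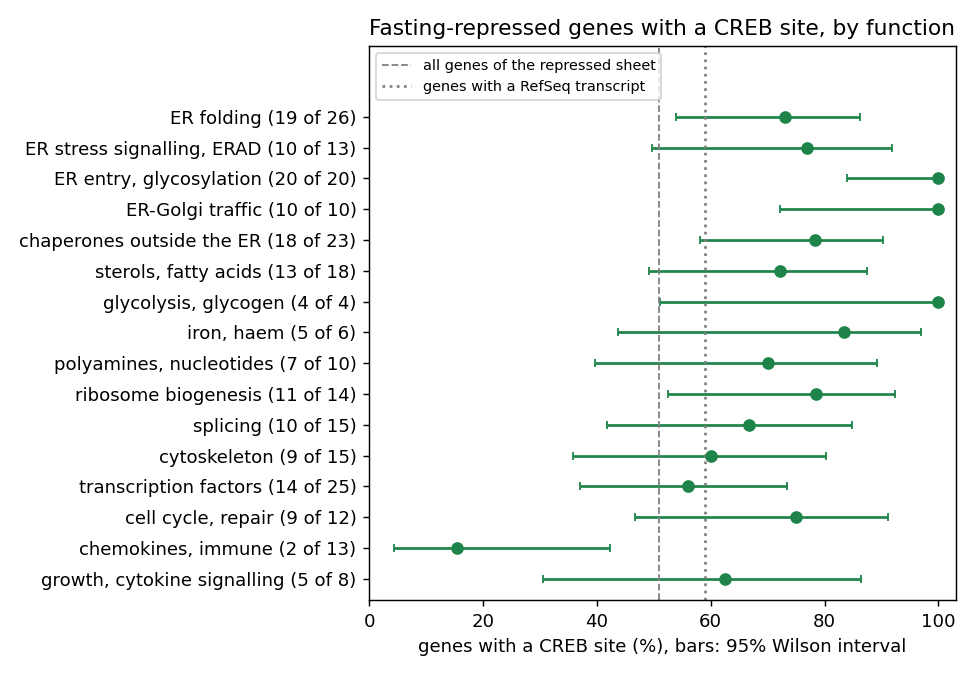
Share of fasting-repressed genes with at least 1 CREB site for each functional list (x axis, percent; y axis, the list with the number of genes with a site of all its genes), with 95% Wilson intervals as bars. Dashed and dotted lines give the share over the whole sheet (51.0%) and over genes with a RefSeq transcript (59.1%), and the chemokine and immune list lies to the left of both lines with its whole interval.

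The sites at repressed genes were called in fasted and re-fed liver in shares close to those of all sites. Both lists held 190 of the 321 sites (59.2%, Wilson interval 53.7% to 64.4%), against 61.5% of all merged sites. The fasted list alone held 102 (31.8%, 26.9% to 37.1%), against 29.0% of all sites, and the re-fed list alone held 29 (9.03%, 6.36% to 12.7%), against 9.43%. Each background share falls inside the interval of the repressed sites. At the 285 sites of fasting-induced genes the share in both lists was 59.3% (53.5% to 64.8%), with 84 sites in the fasted list only and 32 in the re-fed list only.

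Peak heights were also close to those of all sites. Height is the tallest stack of extended reads within a site in RPM (reads scaled to library size). In both deposited lists it is the height in the pool of fasted livers, also at sites in the re-fed list only. All 4645 shared sites carry the same value in the 2 lists, and every value is a whole number of reads of 0.0236 RPM each. The median height at repressed genes was 0.685 RPM (interval of the median 0.637 to 0.732), and that of all sites was 0.708 RPM (0.685 to 0.708). The sites ranged from 0.236 RPM (10 reads) to 7.27 RPM (308 reads), with quartiles of 0.519 and 1.18 RPM. Heights of 2.38 RPM or more were found at 24 of the sites (7.48%, 5.08% to 10.9%), against 10.2% of all sites. The median of sites called in both lists was 1.03 RPM, against 0.567 RPM for the fasted list only and 0.401 RPM for the re-fed list only, and over all sites these medians were 0.991, 0.567 and 0.401 RPM.

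**Figure D2:**
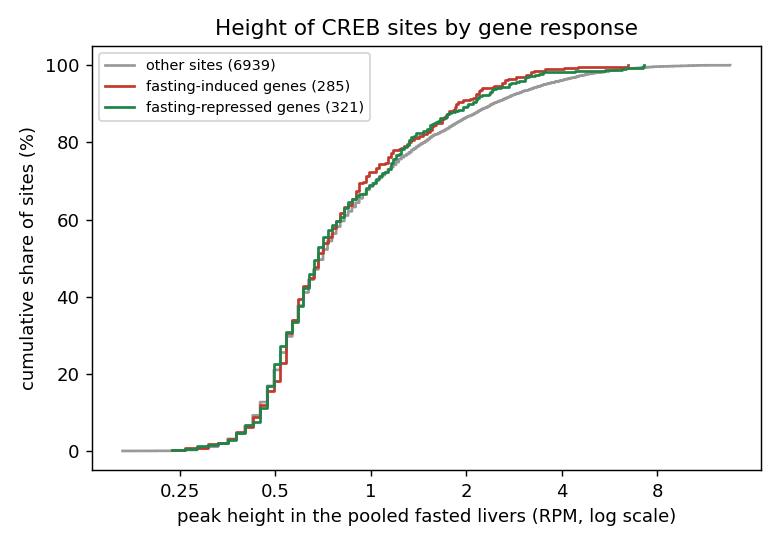
Cumulative share of sites (y axis, percent) up to a given height in the pooled fasted livers (x axis, RPM on a log scale) for the 321 sites of fasting-repressed genes, the 285 of fasting-induced genes and the 6939 other sites. The curves run together up to about the median and the curve of the other sites lies lower above it, where the repressed genes have 7.48% of their sites at 2.38 RPM or more.

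The highest sites belonged to genes of quite different function, and all 10 highest were called in both lists, as were 99.3% of all sites at least as high as the last of them (458 of 461). The first, at chr17:47074678-47074788, was listed for Bysl, a factor of small ribosomal subunit assembly, with 7.27 RPM (exact Poisson interval 6.48 to 8.13). Next to it in height was the site of Fdxacb1 at chr9:50520379-50520496, with 7.25 RPM (6.46 to 8.10), so the order of these 2 is within counting error. Tmem39a, a transmembrane protein of the ER, followed with 6.40 RPM (5.66 to 7.21), and Unkl, a zinc finger protein, with 6.21 RPM (5.48 to 7.01). Nktr, a cyclophilin with an SR-like domain, had 5.50 RPM, and Zfand2a had 4.41 RPM.
Lower among the 10 were the splicing regulator Tra2a at 3.49 RPM, Gtf2f1 at 3.40 RPM, the inducible cytosolic chaperone Hspa1a at 3.30 RPM and Mkks at 3.16 RPM, whose counting intervals overlap. Hspa1a has a near-identical neighbour copy, Hspa1b, and reads common to both copies cannot be placed by a unique match.

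Genes of the secretory pathway held 73 of the 321 sites. Of 69 repressed genes in 4 lists (ER folding, ER stress signalling with ER-associated degradation, ER entry with glycosylation, and ER to Golgi traffic), 59 had a site (85.5%, 75.3% to 91.9%). The share was 51.0% over all genes of the sheet and 59.1% over entries with a RefSeq transcript. Over all 232 hand-sorted genes, which include these 69, it was 71.6%, and the difference was not tested. Both lists held 42 of these sites (57.5%, 46.1% to 68.2%), against 59.7% of the other 248 sites at repressed genes. Their median height was 0.708 RPM, against 0.661 RPM for those other sites.

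In the list of ER folding, 19 of 26 genes had a site, with a range of 0.283 to 2.93 RPM. Dnajb11, whose listed site is on both sheets and was left out, counts as without a site here and among the secretory genes above. The highest belonged to Ficd, which AMPylates BiP, at chr5:113996911-113997038 with 2.93 RPM (2.43 to 3.49). Hspa5 itself had a single site at chr2:34593878-34594018 with 1.75 RPM (74 reads, 1.37 to 2.19), called in both lists. Txndc11, a thioredoxin-domain protein, had the highest site of this list that was called in the fasted list only, with 1.96 RPM (83 reads). Sites called in the re-fed list only belonged to Calr, at 0.614 RPM (26 reads), and to Manf, a secreted ER stress protein, at 0.283 RPM (12 reads). The genes with no listed site in this list included Pdia4, Dnajc3, Serpinh1 and P4ha2, so ER folding genes lay on both sides of the assignment.

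ER stress signalling and degradation had a site in 10 of 13 genes, and its 14 sites were called in both lists (9) or the fasted list only (5). Of all sites, 9.43% were in the re-fed list only, and the 0 of 14 here allows a share of up to 21.5%. Creb3l2, an ER-bound relative of CREB, had 1.63 RPM (1.27 to 2.06) and Xbp1, a main transcription factor of the unfolded protein response, had 1.46 RPM (1.12 to 1.88). Herpud1, a component of the degradation machinery, had 3 sites. The middle one, at chr8:97275430-97275626, was called in both lists with 0.826 RPM, and those on its flanks, with 0.472 and 0.661 RPM, were called in the fasted list only.

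The 20 genes of ER entry and glycosylation had 26 sites with a median of 1.06 RPM, above the median of all sites (0.708 RPM). H13, the signal peptide peptidase, led with 2.76 RPM (117 reads), and Gmppb, which makes GDP-mannose, had 2.57 RPM (109 reads). Slc35b1, an ER nucleotide sugar transporter family member, had a site of 2.17 RPM in both lists and, 278 bp away, a site of 1.25 RPM (53 reads) in the re-fed list only, the highest of the 29 re-fed-only sites. B4galt5, a galactosyltransferase, had 1 site in each list alone, 16120 bp apart. In the fasted pool, the fasted-only site had 0.685 RPM (29 reads) and the re-fed-only site 0.354 RPM (15 reads). Sites in the re-fed list only also belonged to Srprb, a subunit of the signal recognition particle receptor (0.519 RPM, 22 reads), and to Mogs, a glucosidase of N-glycan trimming (0.401 RPM, 17 reads). Srprb also had a site of 0.449 RPM in the fasted list only, and Mogs a taller one of 1.16 RPM in both lists, 305.5 bp away. In the list of ER to Golgi traffic, 8 of 13 sites were in the fasted list only (61.5%, 35.5% to 82.3%), against 29.0% of all sites, with 4 in both and 1 in the re-fed list only. This is 1 of 16 lists drawn up by hand, and the difference was not tested. Its highest sites, at Golga1, a golgin of the trans-Golgi (2.41 RPM), and Sec23b, a coat protein of COPII vesicles (2.38 RPM), were in both lists.

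Chaperones outside the ER had a site in 18 of 23 genes, and 13 of the 19 sites were in both lists, against 61.5% of all sites. Zfand2a (4.41 RPM) and Hspa1a (3.30 RPM) had the highest sites, and Chordc1, an HSP90 partner, had the site that was in the re-fed list only, with 0.496 RPM (21 reads). Hsp90aa1, Hsph1 and Hspb1 were among the 5 genes without a listed site. In lipid synthesis, 13 of 18 genes had a site. Of its 18 sites, 12 were in both lists, 6 in the fasted list only and 0 in the re-fed list only, which allows a share of up to 17.6%, a range that holds the 9.43% of all sites. Idi1, isopentenyl diphosphate isomerase, had 2.74 RPM (116 reads) and Insig1, the sterol-dependent anchor of SREBP processing, had 2.10 RPM (89 reads), both called in both lists. Elovl6, a fatty acid elongase, had 3 sites of 0.543, 0.991 and 0.590 RPM, with only the middle one in both lists. Fdps, Sqle, Thrsp, Mid1ip1 and Fabp5 had no listed site.

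Ribosome biogenesis (11 of 14 genes, led by Bysl and by Grwd1, a histone-binding ribosome assembly factor, at 2.74 RPM) and splicing (10 of 15 genes, led by Nktr and Tra2a) held tall sites beside low ones, and their medians were 0.661 and 0.755 RPM. The splicing list had 3 of 15 sites in the re-fed list only (20.0%, 7.05% to 45.2%), a range that holds the 9.43% of all sites. They lay at Rbm14, an RNA-binding coactivator (0.519 RPM, 22 reads, beside a site of 1.53 RPM in both lists 543.5 bp away), Lsm3, a subunit of the LSm ring (0.472 RPM, 20 reads), and Snrpd1 (0.449 RPM, 19 reads). Transcription factors had 22 sites, and the highest of these, at Id3, an inhibitor of basic helix-loop-helix factors, was 1.16 RPM (49 reads), followed by Arid3a, an ARID family DNA-binding protein, with 1.13 RPM (48 reads) in both lists. Of these sites 0 of 22 reached 2.38 RPM, which allows a share of up to 14.9%, a range that holds the 10.2% of all sites. Onecut1, a liver-enriched homeobox factor, had 0.543 RPM (23 reads) in both lists. Among smaller lists, Slc25a37, the mitochondrial iron importer mitoferrin, had 3.07 RPM and Tfrc, the transferrin receptor, 2.03 RPM. In polyamine and nucleotide synthesis, Amd2, an S-adenosylmethionine decarboxylase, had 2.48 RPM and Dtymk, thymidylate kinase, 2.24 RPM, while Srm, spermidine synthase, had 0.354 RPM in the re-fed list only. Tubb2a led the cytoskeletal list with 3.07 RPM, ahead of Tubb5, another beta tubulin, with 1.58 RPM. The 4 genes of glycolysis and glycogen each had a site, the highest at Epm2aip1 (1.32 RPM, 56 reads) and Nhlrc1 (1.09 RPM, 46 reads), which encode partners of laforin in glycogen metabolism. In cell cycle and repair, H2afx, a histone variant of the DNA damage response, had 1.37 RPM in both lists and, 8042.5 bp away, 0.496 RPM in the re-fed list only. Wee1, the mitotic inhibitor kinase, had 1.20 RPM. Cdc34, a ubiquitin-conjugating enzyme, had 0.897 RPM (38 reads) and Cdk2ap2, a CDK2-associated protein, 0.283 RPM (12 reads), both in the re-fed list only. Cdk2ap2 also had 0.496 RPM in the fasted list only, 467 bp away. Lifr, the receptor for leukaemia inhibitory factor, led growth and cytokine signalling with 1.51 RPM, and Cish, a feedback inhibitor of cytokine receptors, had 0.614 RPM in both lists and 0.378 RPM (16 reads) in the re-fed list only. Dusp6, a phosphatase of ERK, had the lowest height in the fasted pool of all 321 sites, with 0.236 RPM (10 reads). Its site was in the re-fed list only.

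**Figure D3:**
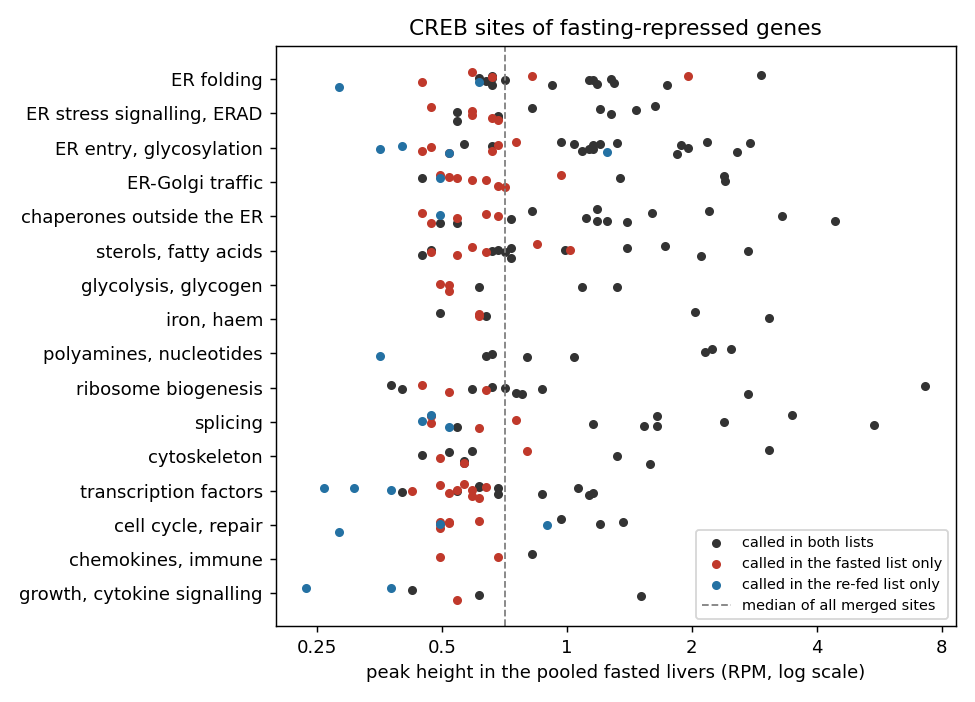
Height of each CREB site (x axis, RPM in the pooled fasted livers, log scale) for the functional lists (y axis), where each point is a site and its colour the list or lists that called it. The dashed line is the median of all merged sites (0.708 RPM). Sites called in a single list lie mostly to the left of it, and the tallest are Bysl (7.27 RPM), Nktr (5.50 RPM) and Zfand2a (4.41 RPM).

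Heights of the re-fed pool are not in the lists, but the number in a site's name gives its place when sites are ordered by mean height over both conditions. At a given rank, a high fasted height means a low re-fed height. A relative fasted height was therefore computed as the log2 ratio of a site's height to the median of the 100 sites ranked next to it on each side, and 312 repressed-gene sites had a value. Its median was 0.00 (interval 0.00 to 0.02), with quartiles of −0.11 and 0.11. It was above 0 at 141 sites (45.2%, 39.8% to 50.7%), below 0 at 138 and at exactly 0 at 33, against 45.9% above 0 over all sites. The values lay within 0.5 of 0 at 306 sites (98.1%), against 97.8% over all sites. Sites called in both lists had a median of −0.02, those in the fasted list only 0.12 and those in the re-fed list only −0.32, and over all sites these were −0.02, 0.11 and −0.31. The calls themselves depend on height, so this order is part of how the lists were made.

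The highest relative fasted heights belonged to Edem1, which targets misfolded glycoproteins for degradation (0.40, 29 reads), Elovl6 (0.40, 25 reads), Gcc1, a golgin (0.38, 30 reads), Dbp, a circadian transcription factor (0.38, 24 reads), and Slc11a2, an iron transporter (0.31, 26 reads), all in the fasted list only. The lowest belonged to Bcl3, a nuclear IκB protein (−0.79, 11 reads), B4galt5 (−0.68, 15 reads), Manf (−0.66, 12 reads), Mlx, a partner of the carbohydrate-responsive factor ChREBP (−0.62, 13 reads), and Snrpd1, a core spliceosomal protein (−0.56, 19 reads), all in the re-fed list only. All 10 rest on 30 reads or fewer. For Manf, the counting interval of its height, 0.146 to 0.495 RPM, is wider than the height itself.

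**Figure D4:**
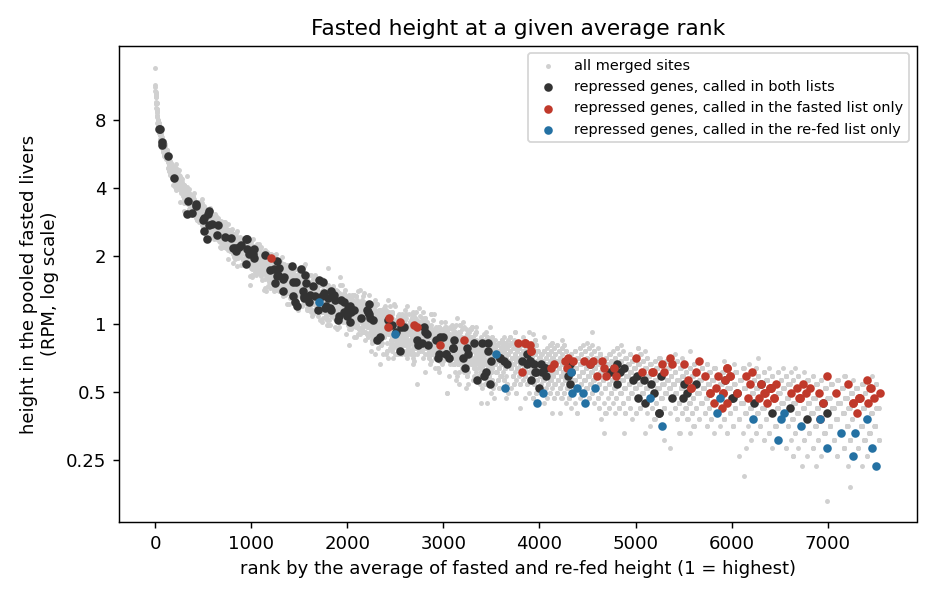
Height in the pooled fasted livers (y axis, RPM, log scale) against the rank of a site by its mean height in both conditions (x axis, 1 is the highest). Grey points are all 7547 merged sites and coloured points the 321 sites of repressed genes by list. The coloured points follow the grey band, with most fasted-only sites in its upper part (68 of 99 above 0, median relative height 0.12) and most re-fed-only sites in its lower part (25 of 27 below 0, median −0.32).

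More than 1 site was listed for 57 genes, of which 44 had at least 1 site in both lists and 11 had all their sites in both. Of all 321 sites, 59.2% were in both lists, and several sites give a gene several chances of a shared one. Nothing particular to these genes is therefore read from that count. The distance from the first to the last site had a median of 3089 bp, and the sites of 24 genes included a pair within 1000 bp. The highest site exceeded the lowest by a median of 1.71-fold, and by 9.03-fold at Fdxacb1. Besides Herpud1 and Elovl6, the genes with 3 sites were Bcl3, Bhlhe40, Cars2, Pfkfb3 and Snrpd1. Pfkfb3, which makes the glycolytic activator fructose-2,6-bisphosphate, had a site of 0.614 RPM in both lists and sites of 0.519 and 0.496 RPM in the fasted list only. Cars2, the mitochondrial cysteinyl-tRNA synthetase, had 0.968 RPM in both lists and 0.708 and 0.614 RPM in the fasted list only. Bcl3 had 0.260 RPM in the re-fed list only and 0.590 and 0.425 RPM in the fasted list only, and Snrpd1 likewise had no site in both lists.

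In 9 genes, at least 1 site was in the fasted list only and another in the re-fed list only, and several of these sites were neighbours. At Bhlhe40, a clock-linked repressor, the fasted-only site (chr6:108625139-108625249, 0.496 RPM) and the re-fed-only site (chr6:108625253-108625361, 0.378 RPM) had centres 113 bp apart. At Tfg, a protein of ER exit sites, the centres were 145 bp apart, with 0.637 RPM for the fasted-only and 0.496 RPM for the re-fed-only site. At Rcan1 they were 65952 bp apart. Of the 29 re-fed-only sites, 10 had another site within 1000 bp (34.5%, 19.9% to 52.7%), against 22.9% of all re-fed-only sites. When a peak of the other list within 500 bp was counted as the same site, 9 of the 29 re-fed-only sites became shared (31.0%, 17.28% to 49.2%), against 17.6% of all re-fed-only sites. Of the 102 fasted-only sites, 12 became shared (11.8%, 6.86% to 19.4%), against 9.09% of all fasted-only sites. Both background shares lie within these intervals. The share in both lists rose from 59.2% to 65.7%, with 65.8% over all sites. Over the whole group, 49 sites (15.3%, 11.7% to 19.6%) had another site within 1000 bp, against 13.7% of all sites and 62 of 285 (21.8%, 17.4% to 26.9%) at fasting-induced genes.

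The letters of the CRE were counted in reference promoters, from 250 bases before to 50 bases after each start, on both strands. A promoter was matched for 214 of the 259 bound genes and for 141 repressed genes without a listed site. The full CRE (TGACGTCA) was in 11 bound genes (5.14%, 2.89% to 8.97%), in 0 of 141 genes without a site (up to 2.65%) and in 2.03% of all 27025 genes in the table. With up to 1 mismatch these shares were 24.8%, 9.22% and 14.2%. A half-site (TGACG or CGTCA, which every full CRE also holds) was in 102 bound genes (47.7%, 41.1% to 54.3%), against 19.9% of genes without a site and 23.0% of all genes. At fasting-induced genes with a site the full CRE was in 13 of 174 (7.47%) and a half-site in 47.7%.

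The height of a gene's tallest site differed with these letters. The full CRE is here the exact TGACGTCA, whereas the study allowed 1 mismatch. Genes with such a mismatched CRE are therefore in the other classes, such as Idi1 (2.74 RPM) among those with neither. The 11 genes with a full CRE had a median of 3.07 RPM (interval 1.65 to 4.41), and the site was called in both lists for 10 of them. The 91 genes with a half-site alone had 1.02 RPM (0.826 to 1.25), with 74 in both lists (81.3%, 72.1% to 88.0%). The 112 genes with neither had 0.661 RPM (0.614 to 0.685), with 64 in both lists (57.1%, 47.9% to 65.9%), and the 3 intervals of the median do not overlap. Over all sites 61.5% were called in both lists, and of all sites over 1 RPM 96.4% were. The calls of the 3 classes were not compared at matched height. The 11 genes were Tmem39a, Zfand2a, Tra2a, Gtf2f1, Mkks, Tubb2a, Trmt61a, Snrpa, Umps, Gemin6 and Rcan1, of which Tra2a, Snrpa and Gemin6 act in splicing. Rcan1 was the exception in height, with 0.472 RPM in the fasted list only. Tall sites also occurred without these letters, as at Unkl (6.21 RPM), Nktr (5.50 RPM) and Hspa1a (3.30 RPM).

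**Figure D5:**
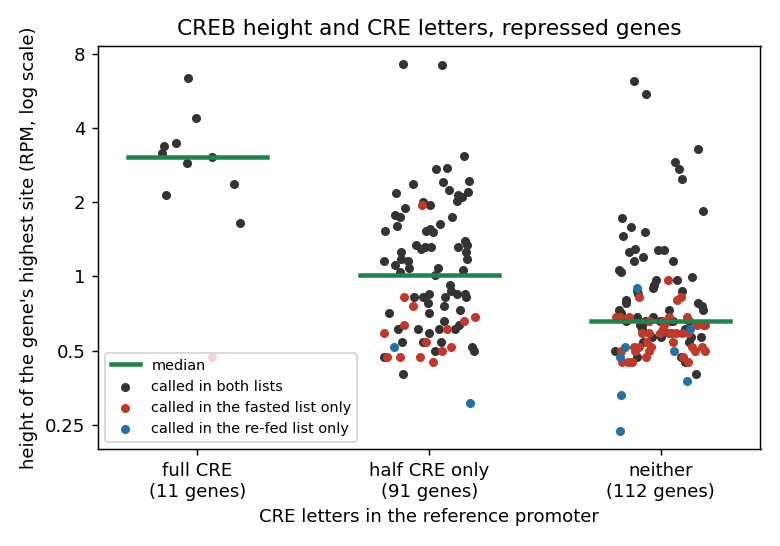
Height of the tallest CREB site of each bound repressed gene (y axis, RPM in the pooled fasted livers, log scale) by the CRE letters in its reference promoter (x axis: full CRE, half-site only, neither). Points are genes coloured by the list of that site and green bars are medians, which fall from 3.07 to 1.02 to 0.661 RPM, with overlapping ranges.

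None of the 51 secretory-pathway genes with a CREB site and a matched promoter had a full CRE (0 of 51, up to 7.005%), a range that holds the 2.03% of all genes. A half-site was in 22 of them (43.1%, 30.5% to 56.7%), against 23.0% of all genes and 47.7% of the bound genes. The ERSE (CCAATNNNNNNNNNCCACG) was in 7 of them (13.7%, 6.81% to 25.7%), against 0.137% of all genes. These 7 are all of the ERSE promoters among the 214 bound genes (3.27%, 1.59% to 6.60%). Hspa5, shown above, had the tallest site of the 7 with 1.75 RPM, and Syvn1, the ubiquitin ligase of ER-associated degradation, had 1.27 RPM. Creld2 and Alg12 share the site of 0.661 RPM, and Pdia6, a disulphide isomerase, also had 0.661 RPM. Calr (0.614 RPM, re-fed list only) and Hsp90b1, the ER paralogue of HSP90 (0.590 RPM, fasted list only), were the 2 whose site was in a single list. Without a listed CREB site, the element was in 5 of 141 genes (3.55%, 1.52% to 8.03%), among them Dnajc3, Ero1lb and Derl3, which act in ER folding or degradation. The HSE (TTCNNGAANNTTC) was in 3 bound genes (1.40%), namely Hspe1, Chordc1 and Slc35c1, in 1.42% of genes without a site and in 0.662% of all genes.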

How the data were processed

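ChIP-seq libraries of CREB from 5 fasted and 5 re-fed livers were analysed through the deposited peak lists. The authors mapped reads to mm8 with Eland and removed duplicates per liver. Reads of the 5 livers were pooled by group for peak calling with HOMER 3.0 (5% FDR, earlier inputs as control). A peak was retained if each subset of 4 livers also gave it and its mean height exceeded 0.35 RPM. The deposited height is a signal (RPM): the maximum pileup of 108 bp fragments, here always of the fasted pool, scaled to its library size (1 read is 0.0236 RPM). Libraries of GR and CEBPB, 1 each, were not used here.

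Sites of both lists were merged by the study's site names. All 4645 shared sites had the same interval in each list. Membership came from the gene names and peak centres of the study's sheets. Their columns of fold change and FDR hold the authors' own comparisons and were not used, nor were tabulated heights (pooled and per liver), apart from a check on 1525 rows that site names rank by average height (0 out of order). Shares have Wilson intervals, medians order-statistic intervals and heights exact Poisson intervals (95%). No test was run. The deposited lists are pooled, sites are not replicates, and the heights per liver were not used.

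The members, functional lists and named genes were chosen with earlier results of these data known. Named were the 10 highest sites, genes with 3 sites, the 2 highest and the re-fed-only sites of each list, the 5 highest and lowest relative heights, sites of 2 genes, and Hspa5, Hspa1a, Creld2, B4galt5 and Onecut1. Other genes, the ERSE and HSE counts, the counts of oppositely transcribed neighbour genes and the 500 bp rule for shared peaks were chosen after the values were seen. Motifs were searched in the RefSeq promoter table (GRCm38.p6), which also gave the sequences. Sequences after the gene start were not shown. The position of sites relative to genes was not analysed here. Scripts ran under Python 3.11.15 with scipy 1.17.1, pandas 2.3.3, numpy 2.4.6 and matplotlib 3.10.9.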

Additional observations from a re-analysis of the deposited data

How the results depend on the processing

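Of 24 alternatives, 17 stayed within the 95% interval of the value reported, 7 moved out of it and 0 reversed. The share of sites called in both lists rose to 88.1% among the 143 at or above the median height of the fasted list (89.5% over all sites), and to 65.7% when peaks of the 2 lists within 500 bp were counted as shared, an alternative chosen after seeing the data. The median height of sites called in both lists was 1.03 RPM (0.991 RPM over all sites). Among entries with a RefSeq transcript 59.1% had a site. With a distance of 500 bp, 11.2% of sites had a neighbour (9.42% over all sites). The share of bound genes with a CRE was 24.8% with up to 1 mismatch and 47.7% for the half-site. No paired analysis was possible because the fasted and re-fed livers came from different mice. Heights per liver that accompany the study were not used here, so leaving out each liver was not run. At the median height of 0.685 RPM a site rests on 29 reads, which limits the order of single sites.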

Other observations

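Some repressed genes with a CREB site faced another gene. In the reference table, 39 of the 214 bound genes with a promoter (18.2%, Wilson interval 13.6% to 23.9%) had a start of an oppositely transcribed gene within 1000 bp upstream, against 17 of 141 repressed genes without a listed site (12.1%, 7.67% to 18.5%) and 12.3% of all genes. Among these pairs were Alg12 with Creld2, Hspe1 with Hspd1, which encode the mitochondrial chaperonins, Bysl with Med20, a Mediator subunit, and Mkks with Slx4ip. Hspe1 had a site of 1.61 RPM (68 reads) in both lists. A site in such a promoter is assigned to both genes only where both are on the sheet, and which gene it acts on was not tested.

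A pair of sites was listed on both sheets and left out above. The site at chr16:22772991-22773117 (1.89 RPM, 80 reads, both lists) was listed for Dnajb11, an ER co-chaperone of BiP, among the repressed genes and again among the induced genes, and for Tbccd1, a tubulin cofactor domain protein, among the repressed. The site at chr2:154295377-154295487 (0.590 RPM, 25 reads, fasted list only) was listed for Zfp341 among the repressed genes and Pxmp4, a peroxisomal membrane protein, among the induced genes.

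The widths of the sites followed the calls. Sites called in the fasted list only were all 111 bp wide and those in the re-fed list only all 109 bp, both at repressed genes and over all sites, whereas sites in both lists reached 210 bp at repressed genes. Among the wide ones were those of Alg12 and Creld2 (200 bp), Herpud1 (197 bp) and Syvn1 (194 bp). By chromosome, the repressed-gene sites made up between 1.54% of all sites (chromosome 14) and 6.69% (chromosome 16) on the autosomes.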
